A study of Homo sapiens with 12 samples.

Results

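The genes described here are 10 members of the interleukin-6 (IL6) family signalling pathway, taken by symbol from a table of 57730 genes: the ligands IL6, IL11 and LIF, the receptor chains IL6R, LIFR, OSMR and IL6ST, the transcription factor STAT3, and the inhibitors SOCS3 and SOCS2. All 10 passed the filter on low counts, as did 14706 genes in all. RNA was sequenced after poly(A) selection from LM3 cells, described in the labels as lung metastatic cells of MDA-MB-231, an established human triple-negative breast cancer line. There were 4 groups of 3 libraries: cells with a control hairpin (shControl), cells with ACSL5 knocked down (shACSL5), and the same pair of cells given palmitic acid (shControl_PA and shACSL5_PA). All cells grew in medium with serum. The hairpins used, whether a group was 1 clone, and how much palmitic acid was given, for how long and in what vehicle were not stated in the labels used here. The fatty acid and its vehicle cannot be told apart. The labels do not state that a group's libraries came from separate cultures, so p-values measure the spread between these libraries, which may be technical.

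Cytokines of the IL6 family signal through IL6ST (gp130), a receptor chain that they share. IL6 and IL11 bind their own receptor chains, IL6R and IL11RA, before they engage IL6ST. LIF uses LIFR with IL6ST, and oncostatin M uses OSMR or LIFR with IL6ST. The bound receptors activate JAK kinases, which phosphorylate STAT3, and STAT3 switches on SOCS3, whose protein binds IL6ST and JAKs and shuts the signal down. SOCS2 is best known for restraining growth hormone signalling. In breast cancer the pathway has been studied for its part in growth, invasion and spread, and transcript levels do not report the phosphorylation on which its activity depends.

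The libraries held 16788694 to 21814751 counts. ACSL5, an acyl-CoA synthetase that activates long-chain fatty acids and is the target of the knockdown, was at 142 to 145 CPM (counts relative to the library's total, with library sizes scaled by the TMM method) in the shControl libraries and 10.2 to 12.5 CPM in shACSL5. With palmitate it was at 189 to 194 CPM in shControl_PA and 13.3 to 17.6 CPM in shACSL5_PA. The mesenchymal markers VIM, CD44, AXL and SPARC were present in every library, VIM at 2550 CPM or more. Their sum, mostly VIM, was at 5020 to 5210 CPM in control and 3700 to 3830 CPM in knockdown cells without palmitate. With palmitate it was at 4530 to 4670 and 3610 to 3830 CPM. With the knockdown without palmitate VIM changed by -0.59 and SPARC by -0.81, both past the test, while CD44 (0) and AXL (0.06) did not pass it. Under palmitate the knockdown lowered VIM (-0.44), SPARC (-0.51) and CD44 (-0.17) and raised AXL (0.23), all past the test. ESR1 and PGR did not exceed 0.439 and 0.0549 CPM. Summed immune markers reached at most 0.871 CPM, with CD3E at 0 counts in all 12 libraries. Summed luminal markers, mostly KRT19, were at 56.9 to 62.6 CPM in shControl, 31.5 to 34.7 CPM in shACSL5, and 38.9 to 41.1 and 22.9 to 27.0 CPM in shControl_PA and shACSL5_PA. KRT19 fell with the knockdown (-1.02), while EPCAM, the other luminal marker tested, rose by 0.92 (adjusted p = 0.00177) without and 0.65 (adjusted p = 0.0266) with palmitate. Summed fibroblast markers, nearly all PDGFRB, were at 9.49 to 10.8, 12.9 to 14.6, 4.05 to 5.45 and 7.43 to 8.38 CPM in shControl, shACSL5, shControl_PA and shACSL5_PA, the order of groups that SOCS3 also had. Summed endothelial markers were at 2.91 to 5.64 CPM in shControl and at most 2.30 CPM in the other groups. The part of these marker shifts in the results below was not tested, and fewer cells of a type and less RNA per cell cannot be told apart in bulk RNA.

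The clearest pattern was that of SOCS3, which palmitate lowered to less than 50% of its level in both kinds of cell and which the knockdown raised by about 1.5-fold with and without palmitate. The knockdown lowered the 3 signalling receptor chains LIFR, OSMR and IL6ST, LIFR the most, and raised STAT3 slightly and SOCS2 more than 2-fold. IL11 was the only member that passed the test for a palmitate response that differed between knockdown and control cells. Of all genes tested, 7.15% passed it with a higher and 7.39% with a lower response. IL6 itself was close to the detection limit and its changes did not pass the test.

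**Figure D1:**
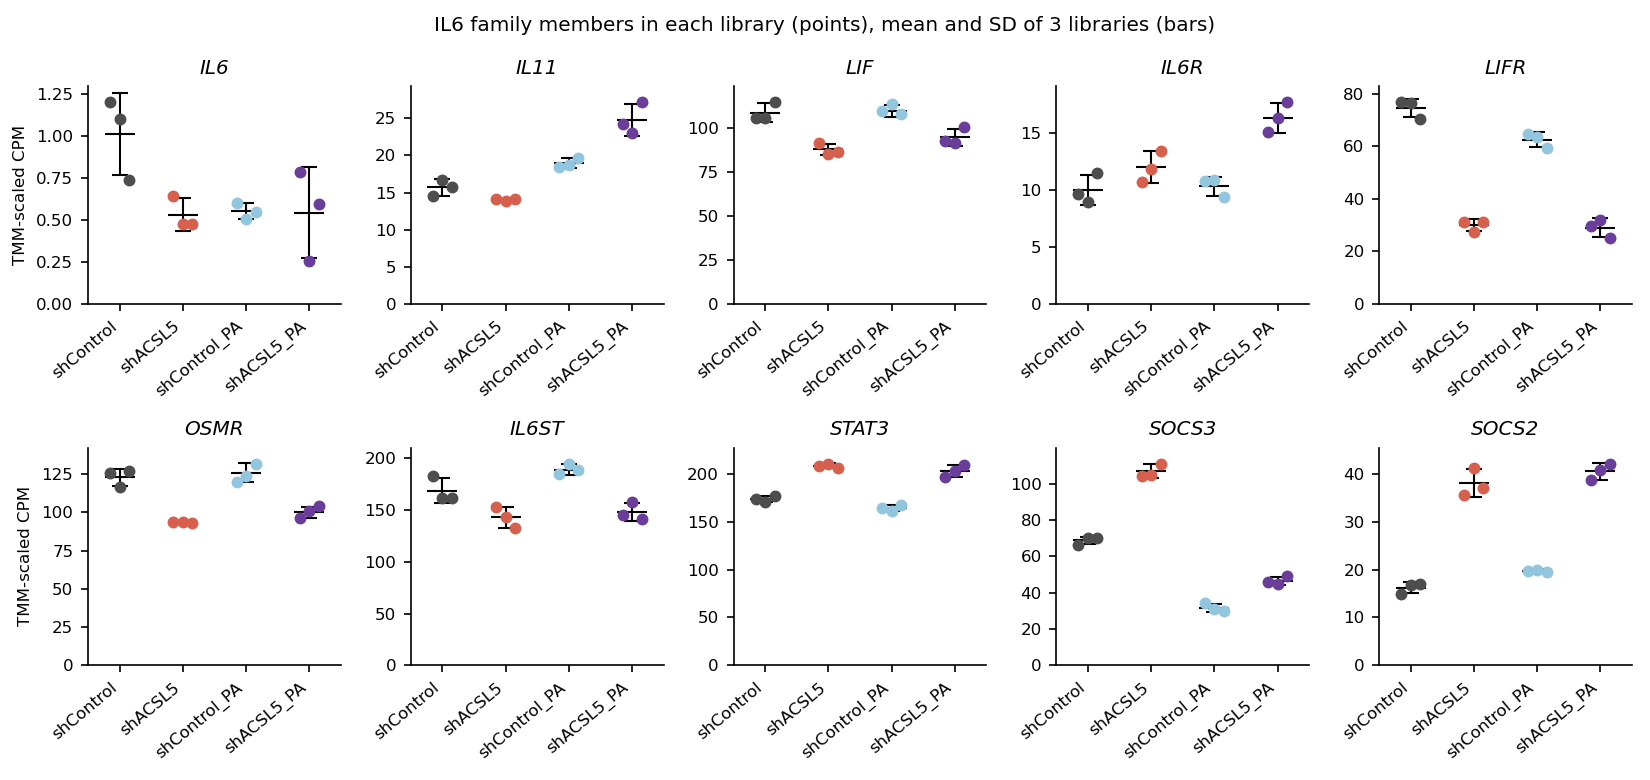
TMM-scaled CPM (linear axes from 0) of each of the 10 genes in the 12 libraries by group, with points for libraries and bars for the mean and SD of 3. SOCS3 is low in both palmitate groups, LIFR is low and SOCS2 high in both knockdown groups, and IL11 is highest in shACSL5_PA, where its libraries lie at 23.0 to 27.2 CPM.

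To compare the genes with each other, CPM was divided by the length of each gene's exons in kilobases. In shControl, LIF was the most abundant at 27.5 CPM per kilobase, followed by SOCS3 at 25.1, STAT3 at 19.7, IL6ST at 18.2 and OSMR at 17.1 CPM per kilobase. LIFR (6.30), IL11 (5.88), SOCS2 (2.39), IL6R (1.55) and IL6 (0.488 CPM per kilobase) were lower. The library ranges of STAT3 and IL6ST, of IL6ST and OSMR, and of LIFR and IL11 overlapped, so those neighbours did not differ in order beyond their spread. In shACSL5 SOCS3 stood first at 39.1 CPM per kilobase, and in shControl_PA it ranked below LIF, IL6ST, STAT3 and OSMR, at 11.6. In shACSL5 LIFR was at 2.52 CPM per kilobase, where its range lay between those of IL11 and IL6R. The order depends on the gene models: with the longest transcript as the length, STAT3 came first in shControl, at 34.5 CPM per kilobase. With that length STAT3 also stood above SOCS3 in shACSL5, at 41.4 beside 39.1 CPM per kilobase.

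**Figure D2:**
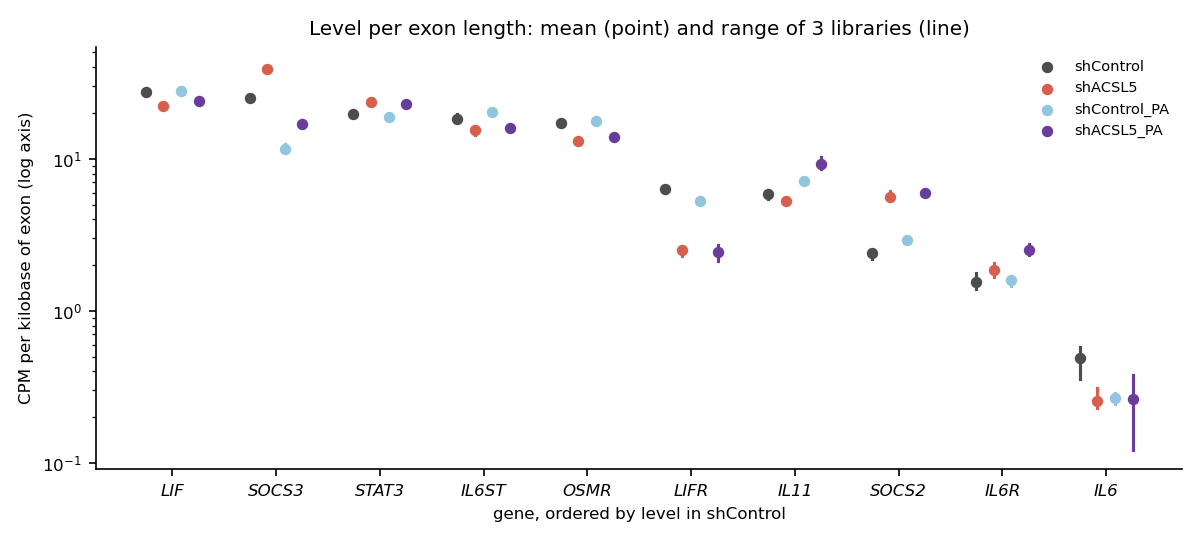
CPM per kilobase of exon (log axis) for the 10 genes, ordered by their mean in shControl, with a point for the mean and a line for the range of the 3 libraries of each group. LIF, SOCS3, STAT3, IL6ST and OSMR lie above 10 CPM per kilobase in all 4 groups, and IL6 lies below 1.

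SOCS3 (ENSG00000184557, GRCh38 chromosome 17, 78356778 to 78360077, minus strand) encodes the feedback inhibitor that STAT3 induces. It was at 66.4, 70.1 and 69.8 CPM in the shControl libraries and at 34.3, 30.8 and 29.9 CPM in shControl_PA. In shACSL5 it was at 104, 105 and 111 CPM, and in shACSL5_PA at 46.0, 44.5 and 49.0 CPM. The 4 groups did not overlap, and their order was shControl_PA, shACSL5_PA, shControl and shACSL5 from low to high. Each of the 4 pairwise comparisons gave p = 0.1 in a 2-sided exact permutation test, the smallest that 3 against 3 libraries can give.

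Palmitate changed SOCS3 by -1.12 on the log2 scale in control cells (SE 0.06, adjusted p = 2.08e-12 in edgeR's quasi-likelihood test), leaving 46.0% of its level. In knockdown cells the change was -1.20 (SE 0.05, adjusted p = 3.7e-13), leaving 43.5%. The difference between these responses, the interaction term of the model, was -0.08 (SE 0.08, 95% interval -0.25 to 0.08, adjusted p = 0.547), so a difference as large as the palmitate effect itself lay outside the interval. The knockdown raised SOCS3 1.55-fold without palmitate (log2 0.64, SE 0.05, adjusted p = 2.84e-10) and 1.47-fold with it (log2 0.55, SE 0.06, adjusted p = 6.79e-08). The SOCS3 level in knockdown cells with palmitate therefore remained below that in control cells without it.

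SOCS2 (ENSG00000120833, chromosome 12, 93569814 to 93583487, plus strand) followed the knockdown rather than palmitate. Its libraries were at 14.9, 16.7 and 17 CPM in shControl and 35.6, 41.3 and 37.2 CPM in shACSL5. With palmitate they were at 19.8, 20 and 19.5 CPM in control cells and 38.7, 40.8 and 42.2 CPM in knockdown cells. Every knockdown library lay above every control library. The rise was 2.34-fold without palmitate (log2 1.23, SE 0.08, adjusted p = 2.43e-12, edgeR) and 2.05-fold with it (log2 1.04, SE 0.07, adjusted p = 7.44e-11). Palmitate raised SOCS2 by 0.29 (SE 0.08, adjusted p = 0.0105) in control cells (0.23 with adjusted p = 0.0624 when shControl replicate 1 was left out), and the value in knockdown cells was 0.09 (SE 0.07, adjusted p = 0.364). The interaction was -0.19 (95% interval -0.41 to 0.03, adjusted p = 0.255). SOCS2 shares 4.09% of its exon bases with SOCS2-AS1 on the opposite strand, and whether reads were counted by strand is not known, so reads of the gene and its antisense partner cannot be told apart, here and for the other overlaps given below.

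STAT3 (ENSG00000168610, chromosome 17, 42313324 to 42388568, minus strand), the transcription factor between the receptors and SOCS3, changed much less than SOCS3. It was at 174, 171 and 177 CPM in shControl, 209, 211 and 206 in shACSL5, 165, 161 and 168 in shControl_PA, and 197, 203 and 210 CPM in shACSL5_PA. The knockdown libraries lay above the control libraries with and without palmitate, and the changes were 0.26 (SE 0.03, adjusted p = 6.19e-07) and 0.30 (SE 0.03, adjusted p = 1.45e-07, edgeR), which is 1.20-fold and 1.23-fold. With palmitate STAT3 stood at -0.08 (SE 0.03, adjusted p = 0.0943) in control cells and -0.04 (SE 0.03, adjusted p = 0.471) in knockdown cells. With library sizes alone as the scaling, the value in control cells was -0.13 and passed the test (adjusted p = 0.00711).

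The promoters of the inhibitors and of STAT3 are shown because SOCS3 is a target of STAT3, which binds a spaced palindrome. RefSeq windows (GRCh38.p14, from 250 bases before to 50 after an annotated start) were found for 8 of the 10 genes, all but SOCS2 and LIF. They were searched on both strands for TTCNNNGAA, the classical STAT spacing, for TTCNNGAA with 1 base fewer, for TGANTCA, the AP-1 element, and for the NF-kB element. Overlaps between motifs were allowed. Of 35116 such windows, 7.66% held TTCNNNGAA, 7.74% TTCNNGAA, 7.71% TGANTCA and 11.3% the NF-kB element. For SOCS3 the 2 windows do not cover the gene start of the GENCODE annotation at 78360077, so the promoter there was not searched. Neither of these windows held TTCNNNGAA. The upstream SOCS3 window, whose start site at 78360925 lies upstream of the gene start in the GENCODE annotation, held TTCNNGAA 215 bases before that site, and the STAT3 window held it 131 bases before the start. Capitals mark the match in the gene's own orientation, at chr17:78361113-78361160 and chr17:42388546-42388593, both on the minus strand.
SOCS3: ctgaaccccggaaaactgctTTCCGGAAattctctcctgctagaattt
STAT3: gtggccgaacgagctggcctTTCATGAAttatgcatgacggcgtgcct
A match describes the letters in these windows and does not show that a factor binds there.

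LIFR (ENSG00000113594, chromosome 5, 38474963 to 38608354, minus strand), the receptor chain for LIF, had the largest fall of the members in the knockdown. It was at 76.9, 76.7 and 70.6 CPM in shControl and 31.1, 27.3 and 31.3 CPM in shACSL5. With palmitate it was at 64.6, 63.7 and 59.5 CPM in control cells and 29.6, 32.1 and 25.2 CPM in knockdown cells. All 6 knockdown libraries lay below all 6 control libraries. The change was -1.32 (SE 0.07, adjusted p = 3.07e-13) without palmitate, leaving 40.1% of the level, and -1.11 (SE 0.07, adjusted p = 2.18e-11, edgeR) with it, leaving 46.4%. Palmitate changed LIFR by -0.25 (SE 0.07, adjusted p = 0.00602) in control cells, and the value was -0.05 (SE 0.08, adjusted p = 0.731) in knockdown cells. The difference of these responses was 0.21 (SE 0.10, adjusted p = 0.194), and it passed the test without shACSL5_PA replicate 3 (0.30, adjusted p = 0.0364). LIFR shares 5.3% of its exon bases with LIFR-AS1 on the other strand.

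OSMR (ENSG00000145623, chromosome 5, 38845858 to 38945596, plus strand), a receptor chain for oncostatin M that lies on the same chromosome as LIFR, fell by less. It was at 126, 117 and 127 CPM in shControl, 93.6, 93.5 and 93.0 in shACSL5, 120, 124 and 132 in shControl_PA, and 96.6, 101 and 104 CPM in shACSL5_PA. The knockdown and control libraries did not overlap. The change was -0.40 (SE 0.04, adjusted p = 5.23e-08) without and -0.32 (SE 0.04, adjusted p = 1.96e-06, edgeR) with palmitate. With palmitate OSMR stood at 0.03 (SE 0.04, adjusted p = 0.68) in control cells and 0.10 (SE 0.05, adjusted p = 0.108) in knockdown cells. OSMR shares 3.19% of its exon bases with RICTOR, a protein-coding gene on the other strand.

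IL6ST (ENSG00000134352, chromosome 5, 55935095 to 55994993, minus strand), the shared signalling chain, was at 183, 162 and 162 CPM in shControl, 153, 143 and 133 in shACSL5, 185, 195 and 189 in shControl_PA, and 145, 158 and 141 CPM in shACSL5_PA. Knockdown libraries lay below control libraries in each pair. The knockdown changed IL6ST by -0.24 (SE 0.05, adjusted p = 0.000396) without and -0.36 (SE 0.05, adjusted p = 5.43e-06, edgeR) with palmitate. Palmitate in control cells gave 0.16 (SE 0.05, adjusted p = 0.0205). That call was lost with library sizes alone (0.12, adjusted p = 0.109) and without shControl replicate 2 (0.14, adjusted p = 0.101), shControl replicate 3 (0.13, adjusted p = 0.0986) or shControl_PA replicate 2 (0.15, adjusted p = 0.0844). In knockdown cells the palmitate value was 0.05 (SE 0.05, adjusted p = 0.564). Of the exon bases of IL6ST, 8.58% overlap an antisense gene.

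IL6R (ENSG00000160712, chromosome 1, 154405193 to 154469450, plus strand), the chain that binds IL6, moved the other way from LIFR, OSMR and IL6ST. Its libraries were at 9.63, 8.95 and 11.5 CPM in shControl and 10.7, 11.8 and 13.4 CPM in shACSL5, ranges that overlap. They were at 10.8, 10.9 and 9.38 CPM in shControl_PA and at 15.1, 16.3 and 17.7 CPM in shACSL5_PA, which lay above every other library. The knockdown gave 0.25 (SE 0.12, adjusted p = 0.0676) without palmitate, a value that passed the test without shControl replicate 3 (0.36, adjusted p = 0.0188) or shACSL5 replicate 1 (0.33, adjusted p = 0.0311). Under palmitate the knockdown raised IL6R 1.58-fold (log2 0.66, SE 0.11, adjusted p = 4.4e-05, edgeR). Palmitate raised it by 0.45 (SE 0.11, adjusted p = 0.00537) in knockdown cells and stood at 0.05 (SE 0.12, adjusted p = 0.824) in control cells, and the difference of 0.41 (95% interval 0.06 to 0.75) did not pass adjustment over all genes (adjusted p = 0.106).

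LIF (ENSG00000128342, chromosome 22, 30240447 to 30246851, minus strand), the most abundant ligand, was at 106, 106 and 115 CPM in shControl and 91.8, 85.6 and 86.7 CPM in shACSL5. With palmitate it was at 110, 114 and 108 CPM in control cells and 92.7, 91.4 and 101 CPM in knockdown cells. Knockdown libraries lay below control libraries in both pairs. The knockdown changed LIF by -0.31 (SE 0.05, adjusted p = 7.97e-06) without and -0.22 (SE 0.05, adjusted p = 0.00055, edgeR) with palmitate, so that LIF and its receptor chain LIFR were both lower in knockdown cells. With palmitate LIF stood at 0.02 (SE 0.05, adjusted p = 0.81) in control cells and 0.11 (SE 0.05, adjusted p = 0.124) in knockdown cells. Antisense genes overlap 4.41% and 2.32% of its exon bases.

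IL11 (ENSG00000095752, chromosome 19, 55364389 to 55370463, minus strand), a ligand studied in bone metastasis and fibrosis, was the only member that passed the test for a palmitate response that differed between the cells. It was at 14.5, 16.7 and 15.8 CPM in shControl and 18.4, 18.7 and 19.7 CPM in shControl_PA. In knockdown cells it was at 14.1, 13.9 and 14.1 CPM without and 24.2, 23.0 and 27.2 CPM with palmitate. Palmitate libraries lay above untreated libraries in both kinds of cell, and the 3 shACSL5_PA libraries lay above all others.

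Palmitate raised IL11 1.77-fold in knockdown cells (log2 0.82, SE 0.09, adjusted p = 3.49e-07) and 1.21-fold in control cells (log2 0.27, SE 0.09, adjusted p = 0.0204, edgeR). The call in control cells was lost with library sizes alone (0.23, adjusted p = 0.0528) and without shControl replicate 1 (0.22, adjusted p = 0.0956) or shControl_PA replicate 3 (0.25, adjusted p = 0.0759). The interaction was 0.55 (SE 0.12, 95% interval 0.29 to 0.80, adjusted p = 0.00371). The knockdown gave 0.39 (SE 0.08, adjusted p = 0.000443) with palmitate. Without it the value was -0.16 (SE 0.09, 95% interval -0.35 to 0.02, adjusted p = 0.123, edgeR), so a fall there was not established.

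IL6 (ENSG00000136244, chromosome 7, 22725884 to 22732002, plus strand) had 21, 20 and 14 counts in the shControl libraries, 14, 8 and 9 in shACSL5, 11, 9 and 10 in shControl_PA, and 16, 5 and 11 in shACSL5_PA. The 3 shControl libraries were the highest after scaling apart from shACSL5_PA replicate 1, at 0.784 CPM, which lay above shControl replicate 3 at 0.737 CPM. The log2 values were -0.91 (SE 0.45, 95% interval -1.84 to 0.02, adjusted p = 0.0831) for the knockdown and -0.86 (SE 0.45, 95% interval -1.80 to 0.07, adjusted p = 0.163, edgeR) for palmitate in control cells. Both intervals include 0 and also falls larger than that of LIFR. An antisense gene overlaps 20.7% of the exon bases of IL6, and STEAP1B, a protein-coding gene on the other strand, overlaps 2.22%.

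The promoter windows of IL11 and LIFR are shown because these 2 members had the clearest ligand and receptor responses. IL11 held TGANTCA 96 bases before its start (chr19:55370533-55370579, minus strand). Of the 3 LIFR windows, those of the starts at 38595405 and 38557467 held TTCNNNGAA 165 and 182 bases before the start (chr5:38595542-38595590 and chr5:38557621-38557669, minus strand), and the third held none of the motifs. These windows do not cover the LIFR gene start of the GENCODE annotation at 38608354, so the promoter there was not searched. Capitals again mark the match.
IL11: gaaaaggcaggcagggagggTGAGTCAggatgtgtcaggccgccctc
LIFR, start 38595405: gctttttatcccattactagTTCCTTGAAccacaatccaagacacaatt
LIFR, start 38557467: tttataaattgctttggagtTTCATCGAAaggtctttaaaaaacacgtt
TGANTCA was also present in the IL6R and OSMR windows, TTCNNGAA in that of IL6R, and the NF-kB element in those of IL6 and IL6ST. The IL6 window does not cover the gene start of the GENCODE annotation at 22725884.

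**Figure D3:**
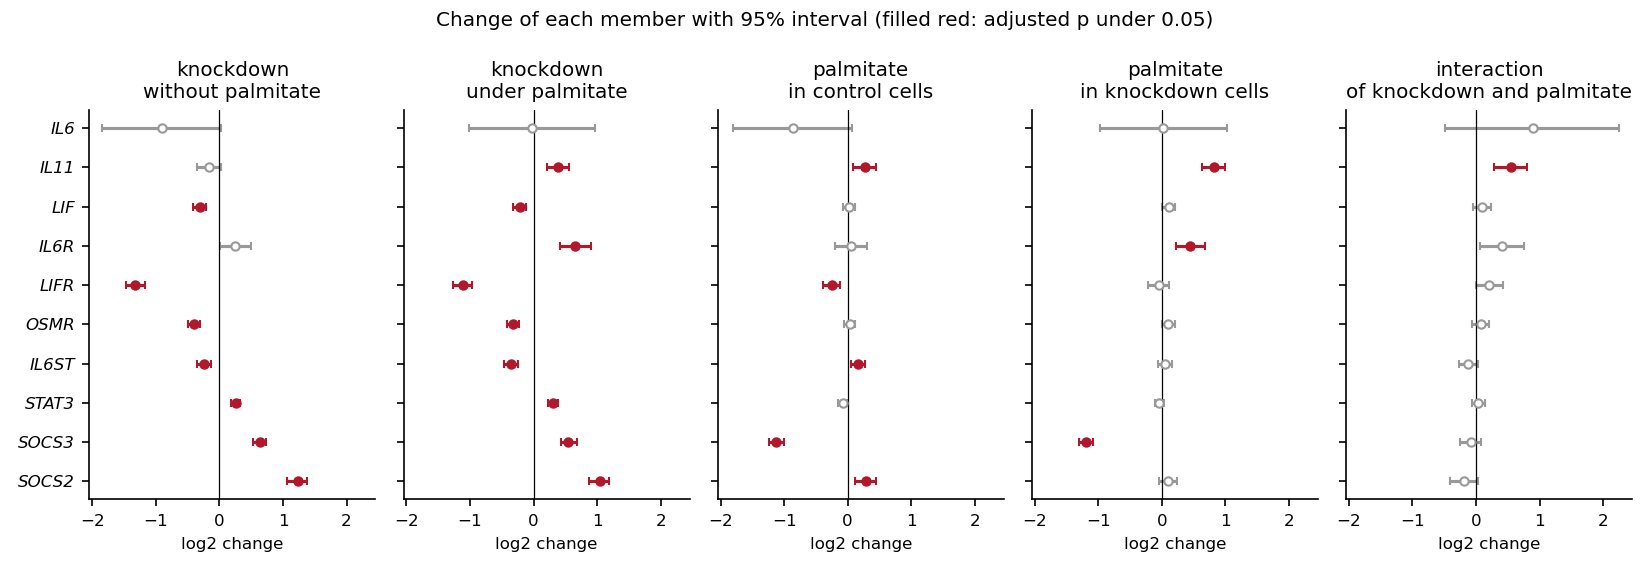
Log2 change of each member with its 95% interval from the model, in the 4 pairwise comparisons and the interaction, filled red where the adjusted p is under 0.05 and open grey otherwise. LIFR, OSMR, IL6ST and LIF lie left of 0 and SOCS3, SOCS2 and STAT3 right of 0 in both knockdown panels, and SOCS3 lies near -1.1 to -1.2 in both palmitate panels.

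Genes with an adjusted p under 0.05 were counted as called. The knockdown without palmitate moved 7 of the 10 members, 3 higher (SOCS3, SOCS2 and STAT3) and 4 lower (LIF, IL6ST, OSMR and LIFR). Among all genes tested 29.7% were called higher and 32.6% lower, so calls were common in this comparison. Under palmitate 9 of 10 were called, 5 higher (SOCS3, SOCS2, STAT3, IL11 and IL6R) and the same 4 lower, beside 24.4% and 26.1% of all genes. The median log2 change of the members was -0.20 without and 0.14 with palmitate, beside -0.02 and -0.003 for all genes.

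Palmitate in control cells was called for 5 members, 3 higher (SOCS2, IL11 and IL6ST) and 2 lower (SOCS3 and LIFR), beside 15.1% and 13.5% of all genes. Of all calls in that comparison 52.8% were higher, and 35.9% with library sizes alone. Without shControl replicate 1 the members called numbered 3, since SOCS2 and IL11 dropped out. Palmitate in knockdown cells was called for IL11 and IL6R, both higher, and for SOCS3, lower, beside 12.1% and 9.78% of all genes. The interaction was called for IL11, higher, beside 7.15% of genes higher and 7.39% lower. The share of interaction calls that were higher was 49.2%, and 59.9% with library sizes alone. The median log2 change of the members was 0.02, 0.07 and 0.08 in these 3 comparisons, beside -0.003, 0.012 and 0.011 for all genes. A knockdown comparison and a palmitate comparison share 1 group of libraries, so their counts are not independent. Libraries of the groups compared also did not overlap in some cases that were not called. These were STAT3 and IL6 with palmitate in control cells, OSMR with palmitate in knockdown cells, and IL11 and IL6 with the knockdown without palmitate. The share of all genes whose libraries separate in this way was not determined, so separation adds no support to a call.

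Among the other ligands, CLCF1 was at 24.4 CPM and CTF1 at 2.96 CPM in shControl, values not divided by exon length. OSM and IL31 had 0 counts in all 12 libraries, which allows up to 0.0133 CPM each over 225922162 counts in total (counting error only), although OSMR, which both use, was present throughout. Of the 8 genes of the ligand list, 4 could be tested. The knockdown raised CTF1 by 1.11 (SE 0.24, adjusted p = 0.000295) and changed CLCF1 by -0.44 (SE 0.08, adjusted p = 5.18e-05, edgeR). Under palmitate 1 ligand was called higher with the knockdown, CTF1, and 1 lower, CLCF1, beside 24.4% and 26.1% of all genes. CLCF1 alone of the 4 was called with palmitate, at -0.44 (adjusted p = 0.000249) in control cells and -0.34 (adjusted p = 0.00505, edgeR) in knockdown cells. In these comparisons 13.5% and 9.78% of all genes were called lower.

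Of 4 other receptor chains 3 could be tested, and all 3 fell with the knockdown, in which 32.6% of all genes were called lower. IL31RA, which pairs with OSMR, was at 34.8, 30.1 and 30.6 CPM in shControl and 12.5, 13.5 and 11.9 CPM in shACSL5 (log2 -1.33, SE 0.08, adjusted p = 2.94e-12), a change of the size of that of LIFR. IL27RA changed by -0.64 (SE 0.08, adjusted p = 1.57e-07) and IL11RA, the receptor chain for IL11, by -0.65 (SE 0.21, adjusted p = 0.00974, edgeR) from 3.95 CPM. Under palmitate IL31RA (-1.10) and IL27RA (-0.35) were again lower, and IL11RA stood at -0.22 (adjusted p = 0.379). IL31RA and IL27RA also fell with palmitate in control cells, by -0.37 and -0.40, beside 13.5% of all genes called lower. No receptor of this list was called with palmitate in knockdown cells, beside 9.78% of all genes lower and 12.1% higher.

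ADAM10 and ADAM17, the membrane proteases that release soluble IL6R, both fell with the knockdown, beside 32.6% of all genes. ADAM10 was at 141, 135 and 132 CPM in shControl and 63.7, 67.1 and 62.0 CPM in shACSL5 (log2 -1.08, SE 0.04, adjusted p = 3e-15, edgeR). ADAM17 changed by -0.71 (SE 0.06, adjusted p = 1.81e-10). Under palmitate the changes were -0.80 and -0.45. Palmitate gave -0.04 for ADAM10 in control cells and 0.24 in knockdown cells, and the difference of 0.28 passed the test (adjusted p = 0.00377). For ADAM17 the difference was 0.26 (adjusted p = 0.0273), while its call with palmitate in knockdown cells (0.17, adjusted p = 0.0397) was lost with DESeq2 (adjusted p = 0.0585) and with library sizes alone (adjusted p = 0.0774).

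Of 9 JAK and STAT genes tested beside STAT3, the knockdown raised 3 and lowered 4 (1 and 4 with library sizes alone). With 29.7% of all genes called higher and 32.6% lower, that is near the share over all genes. JAK2, a kinase that binds IL6ST among other receptors, fell by 0.67 on the log2 scale (SE 0.11, adjusted p = 2.43e-05, edgeR) from 13.5 CPM in shControl. JAK1, at 186 CPM in shControl, fell by 0.17 and STAT2 by 0.30, while STAT5A rose by 0.25 (adjusted p = 0.0245, edgeR). Under palmitate JAK2 was lower (-0.60, SE 0.11) and STAT5A higher (0.34), and no other gene of the list was called. Among all genes 26.1% were called lower and 24.4% higher in that comparison. Palmitate in control cells raised 1 and lowered 2 of the list (0 and 3 with library sizes alone), beside 15.1% and 13.5% of all genes. In knockdown cells palmitate raised 1, STAT2, by 0.31 (adjusted p = 0.000711, edgeR) and lowered 0, beside 12.1% and 9.78% of all genes.

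Other SOCS genes gave a mixed picture beside SOCS3. In control cells palmitate lowered 3 of the 6 other members of the SOCS and CISH list and raised 0, beside 13.5% of all genes called lower and 15.1% higher. SOCS6 was at 27.8, 23.2 and 24.8 CPM without and 17.3, 18.0 and 16.3 CPM with palmitate (log2 -0.55, SE 0.08, adjusted p = 2.67e-05), SOCS5 stood at -0.33 (adjusted p = 0.000144), and CISH, named after its values were seen, at -0.99 (SE 0.36, adjusted p = 0.0418, edgeR) from 1.54 CPM. With DESeq2, 2 were lower. In knockdown cells SOCS5 fell by 0.20 (adjusted p = 0.0124), while SOCS6 stood at -0.18 (adjusted p = 0.126) and CISH at -0.77 (adjusted p = 0.0978). SOCS6 responded differently in the 2 kinds of cell by 0.37 (adjusted p = 0.0363), a call lost with DESeq2 (adjusted p = 0.0656). Without palmitate the knockdown lowered SOCS4 (-0.34) and SOCS6 (-0.26), beside 32.6% of all genes. It raised SOCS5 (0.13, adjusted p = 0.0476, and 0.109 with library sizes alone, edgeR), beside 29.7% of all genes. Under palmitate SOCS4 was again lower (-0.35), while SOCS6 stood at 0.11 (adjusted p = 0.295, edgeR). SOCS5 (0.26, adjusted p = 0.000588) and SOCS7 (0.27, adjusted p = 0.019, edgeR) were higher there. In that comparison 26.1% of all genes were called lower and 24.4% higher. SOCS5 thus moved in the direction of SOCS3 in every pairwise comparison, by less. CISH and SOCS1, the latter also named after its values were seen, had the signs of SOCS3 in every pairwise comparison too. Both had low counts, and no change of SOCS1 was called. SOCS4, SOCS6 and SOCS7 did not share all of these signs.

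Among the 8 PIAS and phosphatase genes, which dampen STAT or JAK activity or, for PTPN11, relay receptor signals, the knockdown raised 3 and lowered 2 (3 and 3 with library sizes alone), which is near the 29.7% and 32.6% over all genes. PTPN1 rose by 0.30 (SE 0.04, adjusted p = 3.79e-07), PTPN11 by 0.26 (SE 0.03, adjusted p = 5.84e-07) and PIAS4 by 0.48 (adjusted p = 1.13e-05), while PIAS3, an inhibitor of STAT3, changed by -0.21 (adjusted p = 0.00333, edgeR). Under palmitate 2 of the list were called higher with the knockdown, PTPN1 (0.34) and PIAS4 (0.49), and 1 lower, PIAS3 (-0.32). In that comparison 24.4% of all genes were higher and 26.1% lower. PTPN11 stood at 0.07 there (adjusted p = 0.0883, edgeR) and passed the test with DESeq2 (0.08, adjusted p = 0.0436). Palmitate raised PTPN11 by 0.31 in control cells and 0.12 in knockdown cells, and the difference of -0.19 passed the test (adjusted p = 0.00923, edgeR).

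Of 20 genes listed as responsive to STAT3, 16 could be tested. With the knockdown 10 were lower and 5 higher, beside 32.6% and 29.7% of all genes. The counts were the same under palmitate, beside 26.1% and 24.4% of all genes, and DESeq2 gave 9 lower and 5 higher in both. The list's median change was -0.28 without and -0.30 with palmitate, beside -0.02 and -0.003 for all genes. IER3, an early response gene, was at 214, 223 and 216 CPM in shControl and 121, 118 and 121 CPM in shACSL5 (log2 -0.86, SE 0.04, adjusted p = 2.77e-14). HIF1A, the oxygen-regulated factor, stood at -0.72 (SE 0.03, adjusted p = 5.92e-15), the survival gene MCL1 at -0.58 (SE 0.03, adjusted p = 2.06e-14) and VEGFA at -0.60 (SE 0.05, adjusted p = 1.52e-10, edgeR). The 5 genes called higher without palmitate, named after their values were seen, were CEBPD (0.94), ICAM1 (0.61), PIM3 (0.46), BCL2L1 (0.28) and CCND1 (0.27). Palmitate lowered 7 and raised 2 of the 16 in control cells (13.5% and 15.1% of all genes; 6 and 2 of the list with DESeq2), and lowered 9 and raised 3 in knockdown cells (9.78% and 12.1% of all genes). IER3 (-0.26 and -0.19) and HIF1A (-0.24 and -0.10) fell along with SOCS3 in both, by much less, while MCL1 (0.17 and 0.11) and VEGFA (0.49 and 0.66) rose. Most genes of this list also answer to other factors.

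**Figure D4:**
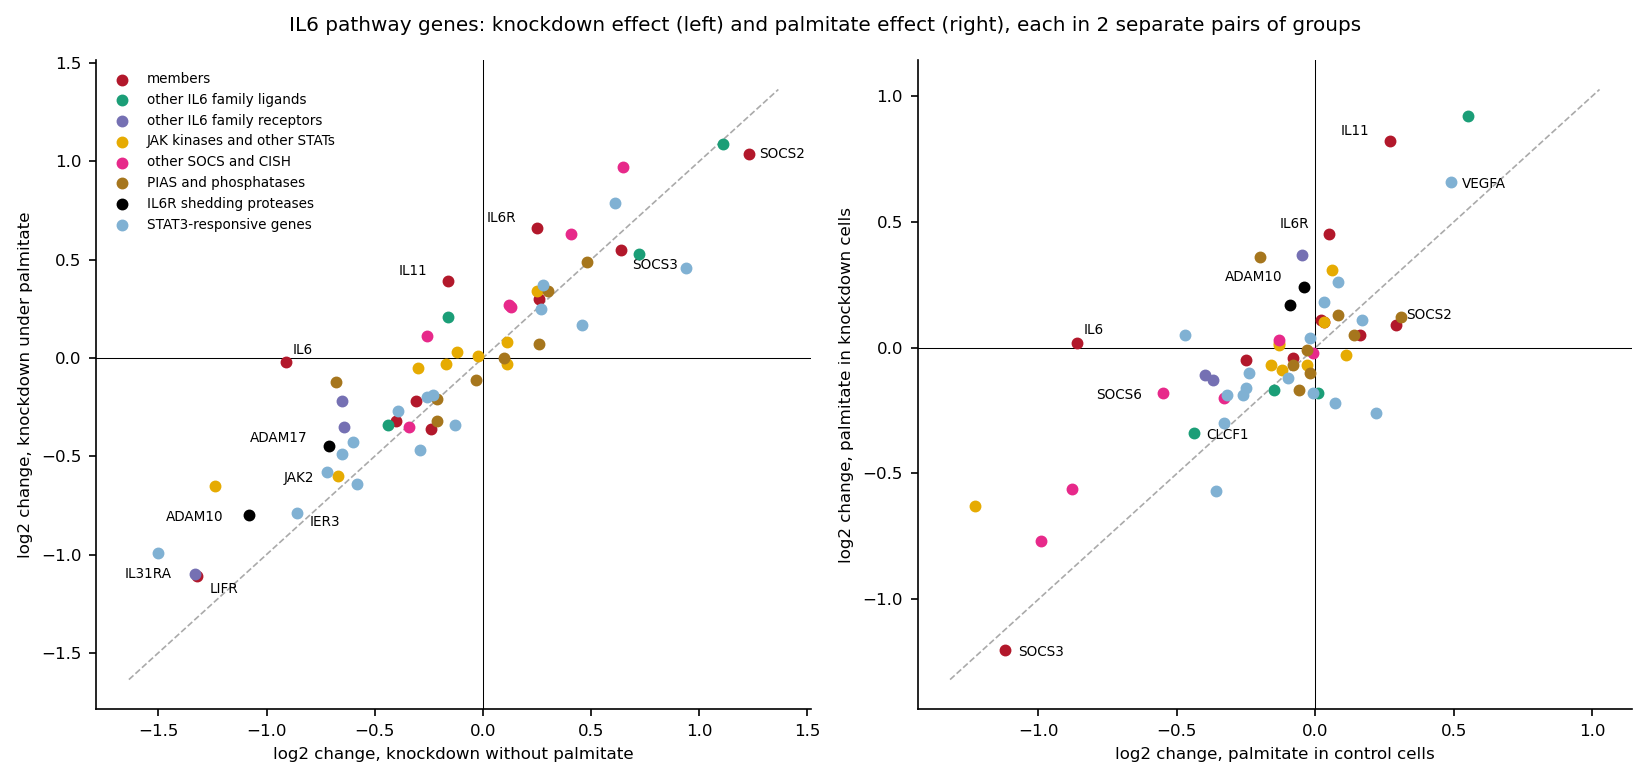
Log2 changes of the tested pathway genes, coloured by list, with the knockdown without against under palmitate (left) and palmitate in control against knockdown cells (right), where the dashed line marks equal changes. On the left LIFR and IL31RA lie together near -1.3 and -1.1, and on the right SOCS3 lies at -1.12 and -1.20 and IL11 above the line at 0.27 and 0.82.

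The genes most like a member over the 12 libraries were found by the root-mean-square difference of log2 CPM after centring each gene on its mean, among 10937 other genes with a mean of at least 5 CPM. For SOCS3 the 5 nearest were KRT80 (0.178), ZNF566 (0.193), PDGFRB (0.204), FILIP1L (0.215) and ST6GALNAC5 (0.239), beside an SD of 0.68 for SOCS3 itself. KRT80, a keratin, had means of 44.1 CPM in shControl, 61.6 in shACSL5, 24.0 in shControl_PA and 34.1 CPM in shACSL5_PA, the same order of groups as SOCS3. PDGFRB, a growth factor receptor listed as a fibroblast marker, had means of 9.87, 14, 4.55 and 7.98 CPM, while the other fibroblast markers DCN, LUM and PDGFRA did not exceed 0.0545, 0.114 and 0.228 CPM in any library. For LIF the nearest were RTF1, RNF19B, PPP1R18, PHF1 and ACLY (0.045 to 0.050), for IL6ST they included CEP350, CENPF, MBNL1 and EIF5 (0.039 to 0.046), and for OSMR they were FOXJ2, ACTR3, LRP12, USP14 and NAE1 (0.048 to 0.053). These 3 members varied less than SOCS3 over the libraries (SD 0.15 to 0.20 on the log2 scale).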

How the data were processed

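The deposited table holds unnormalized counts of reads for each gene in each of the 12 samples. The tools named are HISAT2 2.1.0, fastp 0.22.0 and featureCounts, with the GRCh38 build, per the submitters' processing notes. The annotation release and the strand setting were not given in the sources used here. Counts were analysed with edgeR 4.0.16 in R 4.3.3: filterByExpr, TMM scaling, and 1 quasi-likelihood fit of the 4 groups over 12 libraries with Benjamini-Hochberg adjustment over the 14706 genes tested. The common dispersion was 0.00203. The SE is the absolute log2 change divided by the square root of F. The fit was tested on simulated data. The recovery limit set for that test was missed over all genes and was then restated for genes above low counts, where it was met. Changes of low-count genes were often missed, and false calls were somewhat more frequent than the nominal rate, which bears on adjusted p-values just under the threshold. Library totals ran from 16788694 to 21814751 counts.

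Exon lengths, coordinates and overlaps come from GENCODE 29 (GRCh38), which held 52269 of 57730 gene identifiers. The alternatives were library sizes alone, DESeq2 1.42.0, no low-count filter, only the groups compared, a replicate block and leaving out each library. Genes were named by rule: the members, ACSL5, up to 4 called genes with the smallest adjusted p per pathway list, and the 5 nearest genes of 4 members. The members and lists were chosen with earlier results of these data known. The marker PECAM1 was not analysed here. Some genes that the naming rule or the lists hold are not reported here.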

Additional observations from a re-analysis of the deposited data

Results flagged for a closer look

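IL11 responded to palmitate more strongly in knockdown than in control cells, by 0.55 on the log2 scale in the interaction term of the edgeR model (SE 0.12, adjusted p = 0.00371). It was higher with palmitate in 3 of 3 libraries of each kind of cell. Over the 16 alternatives the value ran from 0.48 to 0.60 and the adjusted p from 0.00238 to 0.0151.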

How the results depend on the processing

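Of 840 values of single members under an alternative, 812 kept their direction and their side of the threshold, 8 lost the call, 4 gained it and 16 changed sign, 0 of these from a called value. With library sizes alone, palmitate in control cells gave -0.03 for LIF, -0.02 for OSMR and 0 for IL6R (log2). Leaving out 1 library gave 0 to 0.06 for LIF, -0.01 to 0.06 for OSMR and -0.03 to 0.16 for IL6R in that comparison. It gave -0.13 to 0.04 for LIFR and -0.34 to 0.37 for IL6 with palmitate in knockdown cells, and -0.39 to 0.32 for IL6 with the knockdown under palmitate. The members called numbered 3 to 5 for palmitate in control cells, with 3 when shControl replicate 1 was left out, and 1 to 2 for the interaction, with 2 when shACSL5_PA replicate 3 was left out. The cause was not tested. Same-numbered libraries had correlations of -0.09 to 0.19 in their deviations from the group means, over 0.1 in 4 of 18 pairs, so the numbers were not taken to pair the samples. With the replicate number as a block, 7, 5, 3, 9 and 1 members were called in the knockdown without palmitate, palmitate in control cells, palmitate in knockdown cells, the knockdown under palmitate and the interaction, the counts found without it. Low counts limit IL6, at 5 to 21 counts a library, CISH and SOCS1.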
